A study of Homo sapiens with 6 samples.

Results

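The 45 genes described here encode molecular chaperones and components of the unfolded protein response (UPR). They are the rows of the expression table whose gene symbol stands in a list of 45 names, and all 45 were found among its 27216 rows. By the compartment and role of their products they fall into 12 cytosolic heat shock proteins and co-chaperones, 8 subunits of the cytosolic chaperonin TRiC, 6 mitochondrial chaperones and proteases, 13 chaperones and folding enzymes of the endoplasmic reticulum (ER), and 6 UPR sensors, effectors and components of ER-associated degradation (ERAD).

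The study asked how EGFR-mutant non-small cell lung cancer cells adapt to osimertinib (Osi), an irreversible inhibitor of mutant EGFR. RNA-seq was performed on H1975, an established EGFR-mutant lung adenocarcinoma line labelled wild type for genotype, meaning that no gene had been engineered. The 3 parental samples had received 1000 nM Osi for 0 h, and the 3 adapted samples for 72 h. The columns of the parental samples are named for DMSO, and no source states whether these cells were untreated or kept in the solvent. According to the labels, apoptotic cells were washed away with cold buffer before RNA was extracted, so the adapted samples represent cells that stayed attached. The labels also describe digestion of the RNA with RNase R, as for circular RNA, whereas the study's methods for this experiment do not. The labels and the methods name different culture media. The study states in general that its data came from independent experiments with technical replicates, but neither the labels nor its RNA-seq methods say whether these samples were separate cultures, so the p-values measure only the spread between these samples, which may be technical. A single cell line was sequenced.

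The values behave as log2(FPKM + 1), where FPKM is a level scaled by transcript length and by the total of mapped fragments, and the sequencing depth behind them is unknown. Differences between groups were tested with limma on 12656 rows with a mean of at least 1, and an adjusted p (Benjamini-Hochberg over all those rows) below 0.05 was taken as the threshold. All 45 genes passed the filter on low values. Parental samples correlated at 0.997 with each other, adapted replicates 2 and 3 at 0.996, and adapted replicate 1 at 0.991 with either of them. Adapted replicate 1 was the adapted sample nearest the parental mean in 3948 of 7202 rows past the threshold (54.8%), and in 21 of 32 such genes of the chaperone and UPR set (65.6%). The 6 epithelial markers were present in all samples, with a summed FPKM of 3710 to 3742 in parental and 3491 to 3788 in adapted cells. Of the markers of other cell types, 4 of 6 fibroblast, 4 of 5 immune and 2 of 4 endothelial genes lay below 1 in every sample. The summed FPKM of the fibroblast list lay between 3.04 and 3.17 in parental and between 8.6 and 9.33 in adapted cells. That of the immune list, nearly all of it CD68, lay between 74.6 and 76.9 in parental and between 14.8 and 29.8 in adapted cells, and that of the endothelial list between 1.13 and 1.88 and between 1.49 and 3.5. All 10 proliferation genes fell, with a median difference of -1.84 and a summed FPKM of 702 to 713 in parental and 174 to 299 in adapted cells, and 6 of 7 EGFR and ERK target genes fell, with a median of -2.62. The part of these shifts in the chaperone values was not tested.

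Chaperones bind unfolded or partly folded polypeptides, and many chaperones release them in cycles driven by ATP. In the cytosol, heat shock factor 1 (HSF1) drives transcription of the HSP70, HSP90, HSP40 and small heat shock protein genes when unfolded protein builds up, and mitochondria hold their own HSP60, HSP10 and HSP70. In the ER, unfolded protein is sensed by IRE1 (encoded by ERN1), ATF6 and PERK (encoded by EIF2AK3). IRE1 splices the XBP1 messenger, cleaved ATF6 enters the nucleus, PERK leads to translation of ATF4, and these factors induce ER chaperones, folding enzymes and the ERAD machinery that returns misfolded protein to the cytosol for degradation.

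After 72 h of Osi the changes of the 45 genes differed between and within compartments. Of the cytosolic heat shock proteins and co-chaperones, HSPA1A, HSPA1B, HSPA8 and the HSP40 gene DNAJA1 rose most. DNAJB1 rose less, and the others of this group fell or did not pass the threshold. Most mitochondrial and ER chaperone genes of the set fell, and subunits of TRiC changed in both directions. The medians of the mitochondrial and ER groups were -0.51 and -0.40, against -0.18 and -0.11 in further genes of these compartments, given below. In all, 10 genes rose, 22 fell and 13 did not pass the threshold. Across the whole table, 56.9% of the tested rows passed it, 30.7% as higher and 26.2% as lower in adapted cells, so that changes in general were common. Among the 45 genes the share was 71.1%, with more calls downward than upward, and the median difference was -0.21 against 0.028 over all tested rows. Values of parental and adapted samples were free of overlap for 36 genes, 12 higher and 24 lower after treatment, beside 66.3% of all tested rows. With 3 samples against 3, the exact two-sided permutation test of a single gene cannot give a p below 0.1, and it gave 0.1 for each of them. The count of genes that rose was 6 without parental replicate 1 and 6 without parental replicate 3, and otherwise up to 12 when a sample was left out. In bulk RNA, fewer cells carrying a transcript and less of it per cell cannot be told apart.

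**Figure D1:**
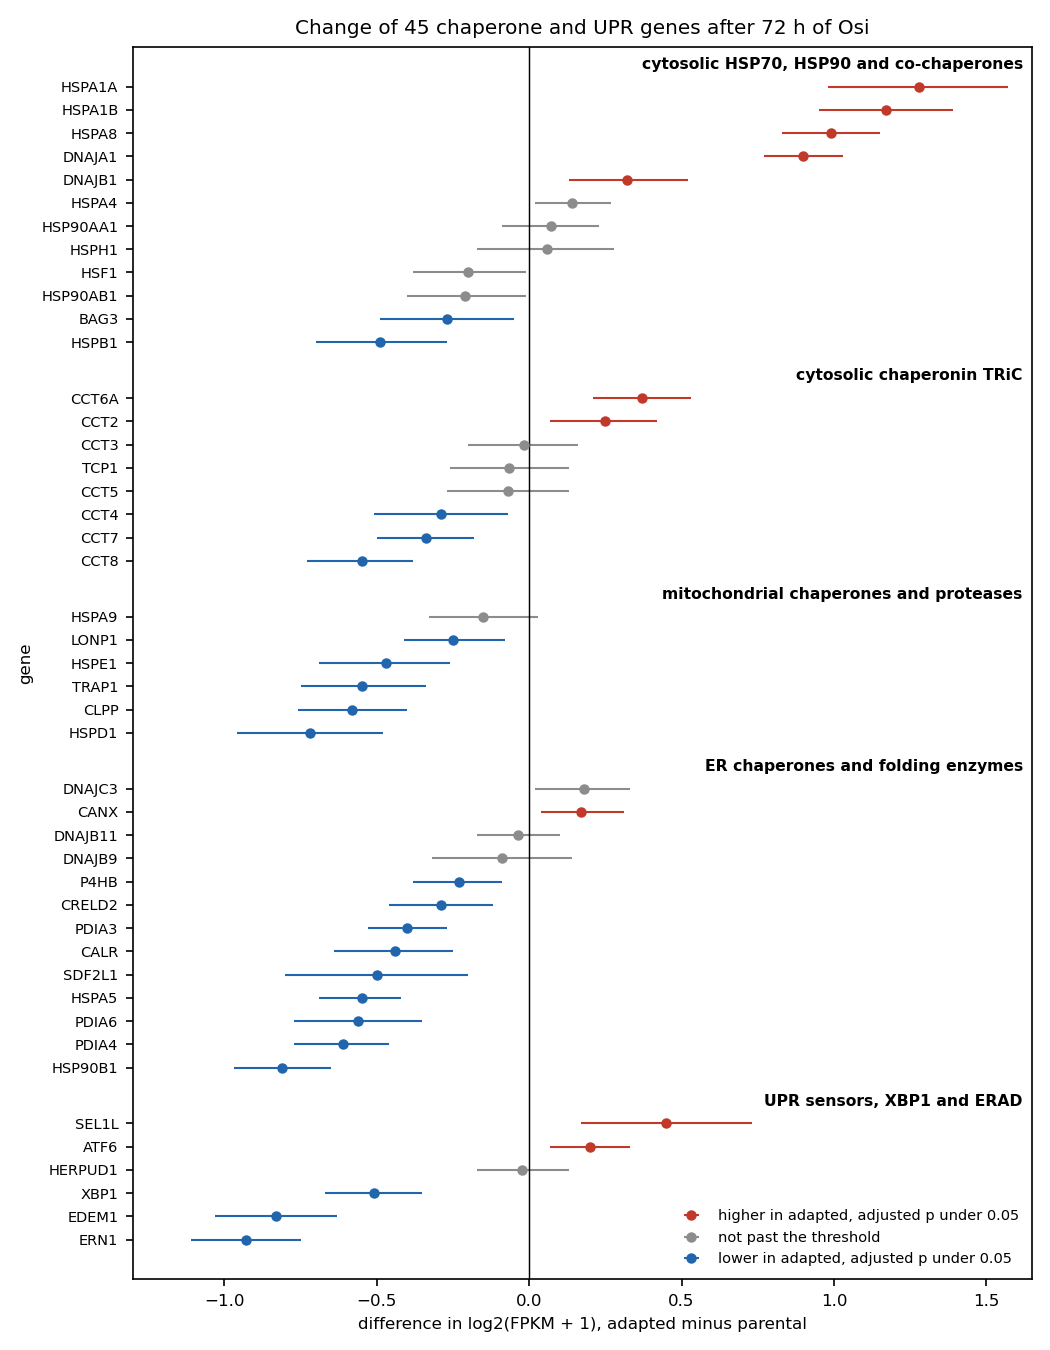
The horizontal axis gives the difference in log2(FPKM + 1), adapted minus parental, for each of the 45 genes on the vertical axis, grouped by role, with 95% confidence intervals from limma as bars. Points run from -0.93 for ERN1 to 1.28 for HSPA1A, with 10 genes higher (red), 22 lower (blue) and 13 not past the threshold (grey).

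Among the 12 cytosolic heat shock proteins and co-chaperones, 5 rose, 2 fell and 5 did not pass the threshold, with a median difference of 0.11. The share past it, 58.3%, was near the 56.9% of all tested rows. The greatest rises of the whole set belonged to the stress-inducible HSP70 genes HSPA1A and HSPA1B, to HSPA8, which encodes the constitutive HSC70, and to DNAJA1, an HSP40 that delivers substrates to HSP70. HSPA1A (GENCODE v29, chr6:31815464-31817946, plus strand) had log2(FPKM + 1) values of 4.29, 4.14 and 4.27 in parental and 5.24, 5.54 and 5.75 in adapted replicates 1 to 3. All adapted samples lay about a unit or more above the parental samples, and adapted replicate 1 was the lowest of them. The difference was 1.28 (SE 0.13, adjusted p = 0.000158), or 2.42-fold on the FPKM + 1 scale. Its neighbour HSPA1B (chr6:31827735-31830255, plus strand) had 4.16, 4.26 and 4.30 in parental and 5.23, 5.45 and 5.55 in adapted cells, a difference of 1.17 (SE 0.09, adjusted p = 6.33e-05). The longest reading frames of the HSPA1A and HSPA1B transcripts have 1926 bases each and are identical at 1922 of them (99.8%), so that reads are shared and the division between the genes is uncertain.

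HSPA8 (chr11:123057489-123063230, minus strand) had values of 8.01, 8.04 and 8.11 in parental and 9.04, 9.0 and 9.09 in adapted cells. The adapted values were tightly grouped and far above the parental ones, with a difference of 0.99 (SE 0.07, adjusted p = 3.2e-05). By mean level HSPA8 stood at rank 10 of the 45 genes in parental and at rank 1 in adapted cells. DNAJA1 (chr9:33025211-33039907, plus strand) was at 5.61, 5.55 and 5.56 in parental and 6.44, 6.51 and 6.48 in adapted cells, again without overlap and with little spread in either group. Its difference was 0.90 (SE 0.05, adjusted p = 1.97e-05). The other HSP40 of the group, DNAJB1, a co-chaperone that is itself induced by heat shock, had 5.23, 5.27 and 5.29 in parental and 5.45, 5.57 and 5.75 in adapted cells. The rise of 0.32 (adjusted p = 0.0133) was smaller than that of DNAJA1, and without parental replicate 1 its adjusted p was 0.0523. The level of DNAJA1 exceeded that of DNAJB1 by 0.31 ± 0.06 (SD, n = 3) in parental and 0.89 ± 0.14 in adapted cells (exact permutation p = 0.1, the smallest possible).

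HSPB1, the small heat shock protein HSP27 that holds unfolded protein without ATP, went the other way. It stood at 8.42, 8.43 and 8.44 in parental and at 7.92, 7.79 and 8.13 in adapted cells, so that every adapted sample was lower, replicate 3 least so. The difference was -0.49 (SE 0.09, adjusted p = 0.00336). BAG3, a nucleotide exchange factor of HSP70 that also binds small heat shock proteins, fell from 4.23 ± 0.02 to 3.96 ± 0.18 (SD, n = 3), a difference of -0.27 with an adjusted p of 0.0386. This call was lost when any sample other than adapted replicate 3 was left out, and over the alternative settings its adjusted p ranged from 0.00297 to 0.112.

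The cytosolic HSP90 genes stood out by level and not by change. HSP90AA1, the inducible form, was at 8.39, 8.37 and 8.37 in parental and 8.36, 8.47 and 8.52 in adapted cells, groups that overlapped, with a difference of 0.071 (95% confidence interval -0.09 to 0.23, adjusted p = 0.402). HSP90AB1, the constitutive form, was at 8.71, 8.71 and 8.70 in parental and at 8.65, 8.42 and 8.41 in adapted cells, a difference of -0.21 (-0.4 to -0.01, adjusted p = 0.068), and it passed the threshold without adapted replicate 1. HSP90AB1 was the most abundant of the 45 transcripts in parental cells and stood at rank 3 in adapted cells. HSPA4, an HSP110-type exchange factor of HSP70, differed by 0.14 (adjusted p = 0.0526) and its relative HSPH1 by 0.058 (adjusted p = 0.625). HSPA4 passed under 4 of 18 alternatives, among them the fit without adapted replicate 1. The transcript of HSF1 itself was at 4.87 ± 0.05 in parental and 4.67 ± 0.13 in adapted cells, a difference of -0.20 (adjusted p = 0.0708) that passed without adapted replicate 1. HSF1 is regulated mainly through its protein, which RNA-seq does not measure.

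**Figure D2:**
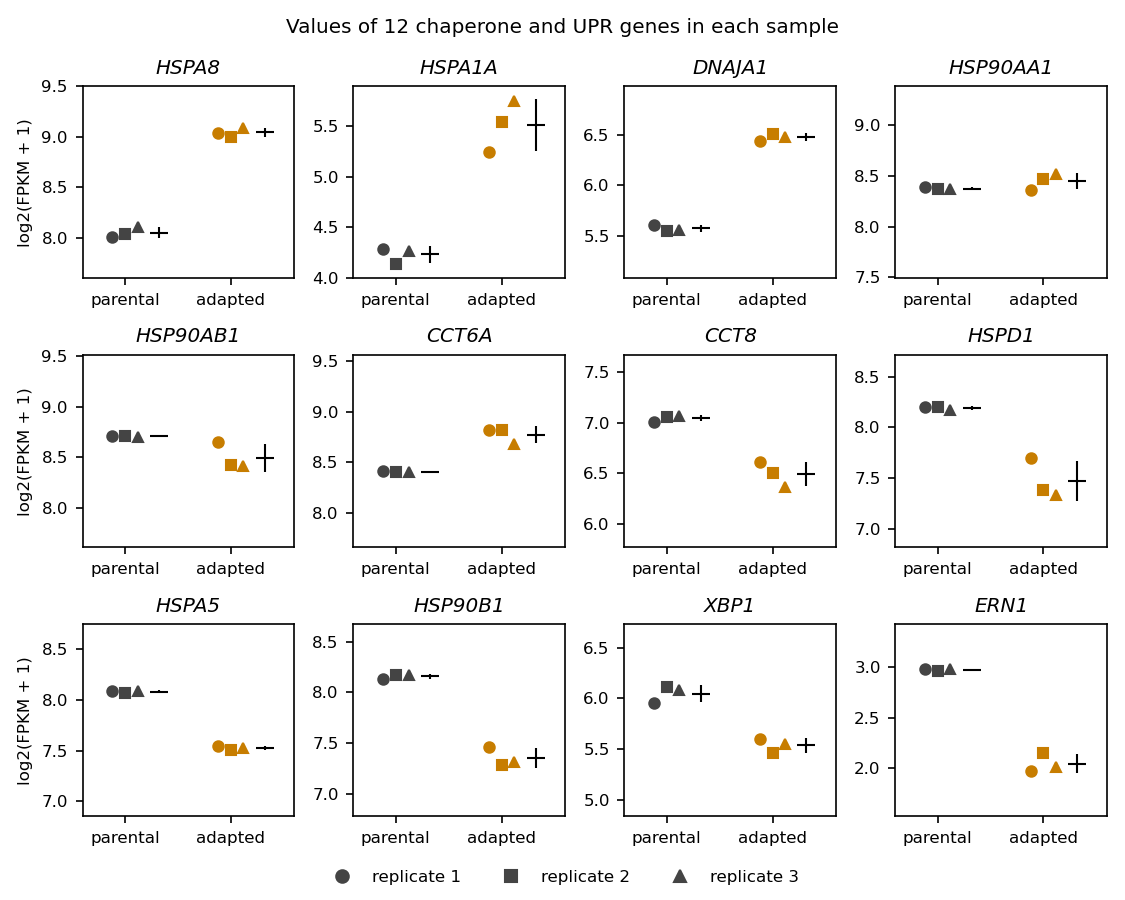
Each panel gives log2(FPKM + 1) on the vertical axis for 1 of 12 genes in the 3 parental (dark) and 3 adapted (orange) samples, with a marker shape for each replicate number and the mean ± SD as a black bar. All panels span the same number of log2 units. HSPA8, HSPA1A and DNAJA1 shift upward and HSPA5, HSP90B1, HSPD1, XBP1 and ERN1 downward without overlap, whereas the groups of HSP90AA1 overlap.

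HSF1 binds the heat shock element, inverted repeats of GAA spaced by 2 bases. RefSeq promoters (GRCh38.p14, searched from 250 bases before the start site to the start site, both strands) were matched to 41 of the 45 genes. A gene was counted if any of its promoters matched, and 11 genes had more than 1. Counts of genes and of promoters are therefore not in the same unit. GAANNTTC or TTCNNGAA, which are 2 such units, occurred in 4067 of 35116 promoters (11.6%) and in those of 12 genes of the set: HSPA1A, HSPA1B, HSPA8, HSP90AA1, HSP90AB1, HSPB1, DNAJA1, DNAJB1, TCP1, CCT2, HSPD1 and CANX. Of these 12 genes 7 rose, 2 fell and 3 did not pass the threshold, while 30.7% of all tested rows rose and 26.2% fell. HSPA1A and HSPA1B, whose reads are shared, are 2 of the 7. Changes among all genes with these letters were not counted, and a link between motif and change was not tested. A run of 3 alternating units, which contains the 2-unit forms, was present in 155 promoters (0.441%) and in 4 genes of the set, HSPA8, HSP90AA1, HSP90AB1 and HSPD1. These 4 genes did not move alike, since HSPA8 rose, HSPD1 fell and both HSP90 genes missed the threshold. A match of letters is a description of the sequence and not a binding site. The stretches with 3 units are given 5′ to 3′ on the gene's strand, with the units in capitals, because they hold the same letters in genes with different outcomes. The 2-unit stretches of HSPA1A and DNAJA1, which rose, follow them. Stretches of 30 bases or fewer lie within annotated exons, and the others do not.
HSPA8, distal, chr11:123062346-123062374, minus strand: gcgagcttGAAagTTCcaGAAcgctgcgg
HSPA8, proximal, chr11:123062171-123062199, minus strand: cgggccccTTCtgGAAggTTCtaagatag
HSP90AA1, chr14:102087114-102087143, minus strand: ggggagggttcTTCcgGAAggTTCgggagg
HSP90AB1, chr6:44247693-44247865, plus strand: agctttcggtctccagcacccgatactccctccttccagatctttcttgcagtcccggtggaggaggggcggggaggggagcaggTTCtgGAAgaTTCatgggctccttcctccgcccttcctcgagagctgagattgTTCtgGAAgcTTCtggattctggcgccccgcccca
HSPD1, chr2:197500065-197500090, minus strand: gcattTTCtgGAAagTTCtgGAAccg
HSPA1A, chr6:31815293-31815463, plus strand: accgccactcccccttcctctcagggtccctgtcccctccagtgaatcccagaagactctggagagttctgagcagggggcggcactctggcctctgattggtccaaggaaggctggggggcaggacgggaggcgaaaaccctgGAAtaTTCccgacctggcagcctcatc
DNAJA1, chr9:33025064-33025093, plus strand: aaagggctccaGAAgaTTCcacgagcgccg

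In the distal stretch of HSPA8 the 3 units lay from -230 to -218 relative to the RefSeq start site, and in the proximal stretch from -55 to -43. Those of HSP90AA1 lay from -88 to -76, and those of HSP90AB1 from -165 to -153 and from -112 to -100. Those of HSPD1 lay from -245 to -233 and from -240 to -228, which overlap. HSP90AA1, HSP90AB1 and HSPD1 have further start sites, whose windows held no match. The 2 units of HSPA1A lay from -106 to -99 and those of DNAJA1 from -198 to -191.

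TRiC is a double ring of 8 different subunits that folds actin, tubulin and other cytosolic proteins, and each ring holds a single copy of every subunit. After 72 h of Osi the transcripts of 2 subunits rose, those of 3 fell and those of 3 did not pass the threshold. The share past it, 62.5%, was near the 56.9% of all tested rows. The subunits had a median difference of -0.068. The median was -0.144 without adapted replicate 1, -0.01 without adapted replicate 3 and -0.02 when samples were scaled to the same total FPKM of nuclear genes, an alternative chosen after seeing the data. CCT6A rose, with 8.41, 8.40 and 8.40 in parental and 8.82, 8.82 and 8.68 in adapted cells (difference 0.37, SE 0.07, adjusted p = 0.00324). CCT8 fell, with 7.01, 7.06 and 7.07 in parental and 6.61, 6.50 and 6.37 in adapted cells (difference -0.55, SE 0.07, adjusted p = 0.000651). Neither pair of groups overlapped. The level of CCT6A was above that of CCT8 by 1.36 ± 0.04 (SD, n = 3) in parental and by 2.28 ± 0.06 in adapted cells, a widening seen in all 3 adapted samples (exact permutation p = 0.1). CCT7 had 7.64, 7.67 and 7.62 in parental and 7.41, 7.23 and 7.27 in adapted cells, a fall of 0.34 with an adjusted p of 0.00435.

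CCT4 stood at 6.68, 6.69 and 6.67 in parental and 6.55, 6.42 and 6.19 in adapted cells, a difference of -0.29 (adjusted p = 0.0299). CCT2 stood at 6.55, 6.52 and 6.56 in parental and 6.88, 6.83 and 6.66 in adapted cells, a difference of 0.25 (adjusted p = 0.023). The values of both genes did not overlap between groups, and in each gene replicate 3 was the lowest of the adapted samples. Both calls were lost when any parental sample or adapted replicate 2 was left out, with adjusted p-values of up to 0.0918 for CCT4 and 0.0856 for CCT2 over the alternatives. The remaining subunits differed by -0.066 (TCP1), -0.016 (CCT3) and -0.07 (CCT5), with adjusted p-values of 0.525, 0.87 and 0.512. Their groups overlapped in each case. The FPKM summed over the 8 subunits was 1211 ± 3.57 (SD, n = 3) in parental and 1216 ± 85.3 in adapted cells.

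Of the 6 mitochondrial genes 5 fell, 0 rose and HSPA9 did not pass the threshold, with a median difference of -0.51. The share past it was 83.3%, beside 56.9% of all tested rows, and 26.2% of all tested rows fell. HSPD1 and HSPE1 encode HSP60 and HSP10, the barrel and the lid of the matrix chaperonin. HSPD1 (chr2:197486581-197516737, minus strand) was at 8.20, 8.20 and 8.17 in parental and 7.70, 7.38 and 7.33 in adapted cells, a difference of -0.72 (SE 0.10, adjusted p = 0.000877). HSPE1 (chr2:197499994-197503457, plus strand) was at 6.29, 6.26 and 6.36 in parental and 6.02, 5.75 and 5.72 in adapted cells, a difference of -0.47 (SE 0.09, adjusted p = 0.00353). In both genes all adapted samples were lower, and adapted replicate 1 was nearest the parental values. The genes lie head to head and share an annotated exon on opposite strands. Whether counting used the strand is not given in the sources used here, so reads there could have entered either gene.

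TRAP1, the mitochondrial HSP90, had 6.34, 6.27 and 6.27 in parental and 5.93, 5.61 and 5.70 in adapted cells (difference -0.55, SE 0.09, adjusted p = 0.00157). CLPP, the proteolytic subunit of a matrix protease, had 5.09, 4.98 and 4.95 in parental and 4.55, 4.35 and 4.36 in adapted cells (difference -0.58, SE 0.08, adjusted p = 0.000602). Both genes were lower in every adapted sample. LONP1, the other ATP-dependent matrix protease of the set, was at 5.55, 5.58 and 5.55 in parental and 5.27, 5.23 and 5.45 in adapted cells. This smaller fall of 0.25 (adjusted p = 0.0212) was lost without any single parental sample and without adapted replicate 2, with an adjusted p of up to 0.0766. HSPA9, the mitochondrial HSP70 (mortalin), was at 6.64, 6.78 and 6.78 in parental and 6.65, 6.46 and 6.63 in adapted cells, so that the groups overlapped (difference -0.15, 95% confidence interval -0.33 to 0.03, adjusted p = 0.127).

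Of the 13 ER chaperones and folding enzymes 9 fell, 1 rose and 3 did not pass the threshold, with a median difference of -0.40. The share past it was 76.9%, beside 56.9% of all tested rows, and 26.2% of all tested rows fell. HSP90B1, which encodes GRP94, the HSP90 of the ER, fell furthest in this group. It stood at 8.13, 8.17 and 8.17 in parental and 7.46, 7.28 and 7.31 in adapted cells, a difference of -0.81 (SE 0.07, adjusted p = 9.22e-05), or 0.57 of the parental level on the FPKM + 1 scale. HSPA5 (chr9:125234853-125241330, minus strand) encodes BiP, the ER HSP70 that also holds the UPR sensors inactive. Its values of 8.09, 8.07 and 8.09 in parental and 7.55, 7.51 and 7.53 in adapted cells were closely grouped on either side, with a difference of -0.55 (SE 0.06, adjusted p = 0.00018).

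Levels within the HSP70 and HSP90 families, which FPKM scales by length, diverged between compartments. HSPA8 and HSPA5 had about the same level in parental cells, where HSPA8 minus HSPA5 was -0.03 ± 0.05 (SD, n = 3), and in adapted cells the difference was 1.52 ± 0.04. All adapted samples lay between 1.49 and 1.57 and all parental samples between -0.08 and 0.02 (exact permutation p = 0.1). HSP90AA1 exceeded HSP90B1 by 0.22 ± 0.04 in parental and 1.1 ± 0.17 in adapted cells (exact permutation p = 0.1). Within the cytosol, HSP90AA1 minus HSP90AB1 went from -0.32 ± 0.01 to -0.05 ± 0.22, with -0.29 in adapted replicate 1 against 0.05 and 0.11 in the other adapted samples.

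Protein disulfide isomerases form and rearrange disulfide bonds in the ER, and the 4 of the set fell, by different amounts. PDIA4 had 7.42, 7.40 and 7.40 in parental and 6.76, 6.72 and 6.90 in adapted cells (difference -0.61, SE 0.07, adjusted p = 0.000233). PDIA6 had 7.08, 7.12 and 7.10 in parental and 6.73, 6.51 and 6.39 in adapted cells (difference -0.56, SE 0.09, adjusted p = 0.00163). PDIA3, which works with calnexin and calreticulin on glycoproteins, fell by 0.40 (adjusted p = 0.000672). P4HB, the canonical isomerase and the most abundant of the 4, differed by -0.23 (adjusted p = 0.0156). Its call was lost without any single parental sample and under quantile normalization, where the adjusted p was 0.305.

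The lectin chaperones calnexin and calreticulin, which hold newly made glycoproteins, went in opposite directions. CALR, the soluble form, was at 8.39, 8.38 and 8.38 in parental and 8.08, 7.80 and 7.93 in adapted cells (difference -0.44, SE 0.08, adjusted p = 0.00316). CANX, the membrane-bound form, was at 7.19, 7.21 and 7.16 in parental and 7.38, 7.39 and 7.31 in adapted cells, a rise of 0.17 (SE 0.06, adjusted p = 0.035). The groups of neither gene overlapped. The call of CANX was lost without any single parental sample and without adapted replicate 2, with an adjusted p of up to 0.13 over the alternatives. CANX minus CALR was -1.2 ± 0.02 (SD, n = 3) in parental and -0.58 ± 0.15 in adapted cells (exact permutation p = 0.1).

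SDF2L1, a component of ER chaperone complexes with BiP, was at 3.74, 3.68 and 3.73 in parental and 3.52, 3.12 and 3.01 in adapted cells (difference -0.50, SE 0.13, adjusted p = 0.0131). Every adapted sample was lower, with replicate 1 closest to the parental range. CRELD2, an ER stress-inducible disulfide isomerase-like protein, differed by -0.29 (adjusted p = 0.0114). The 3 HSP40 proteins of the ER did not pass the threshold: DNAJC3 (P58IPK) differed by 0.18 (adjusted p = 0.0519), DNAJB9 (ERdj4) by -0.09 (adjusted p = 0.466) and DNAJB11 (ERdj3) by -0.038 (adjusted p = 0.599). DNAJC3 did not overlap between groups and passed under 5 of 18 alternatives, among them the fits without adapted replicate 1 or 3.

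**Figure D3:**
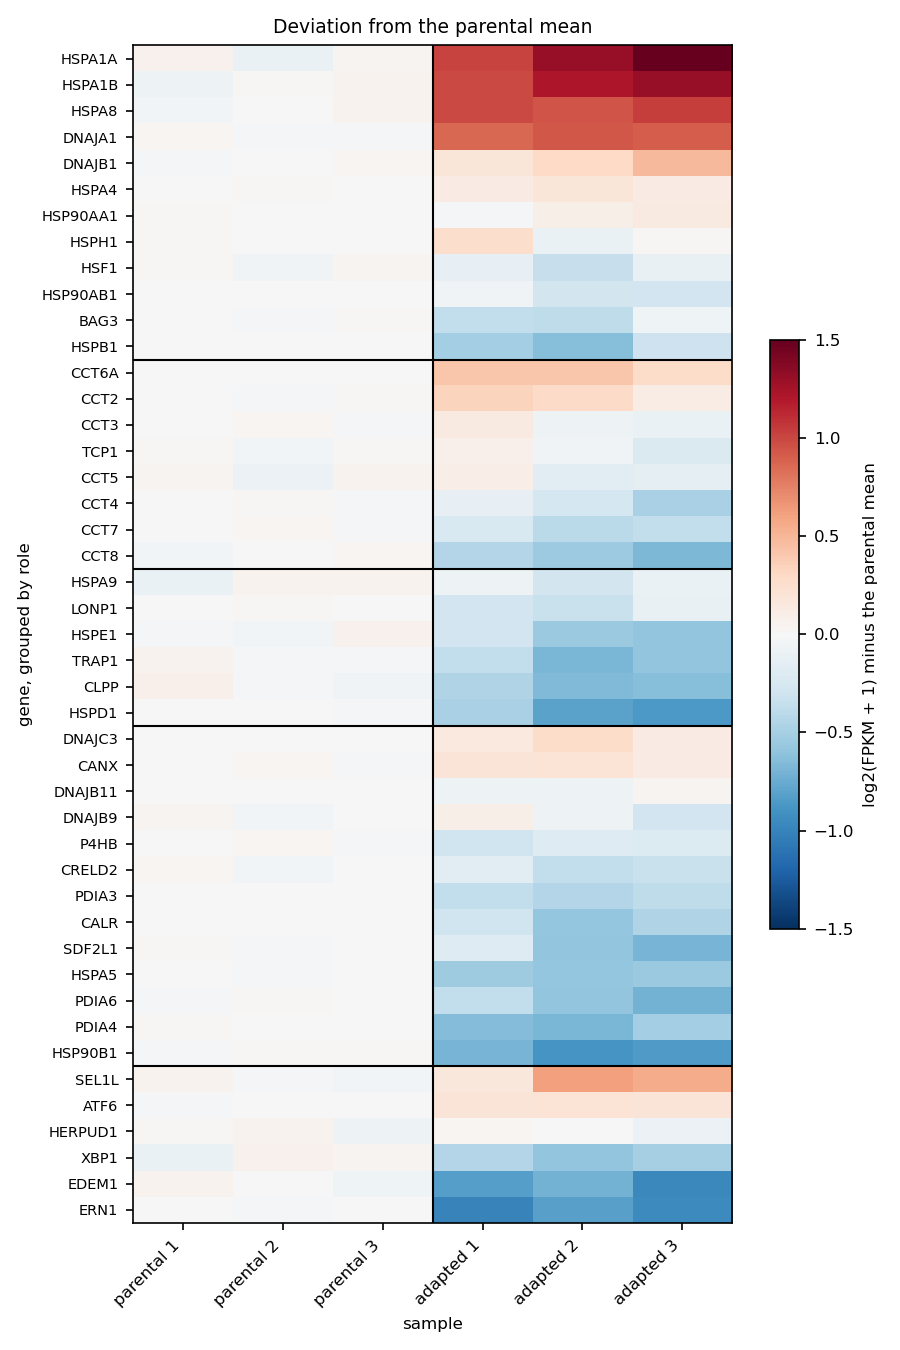
Columns are the 6 samples and rows the 45 genes, grouped by role from top to bottom (cytosolic, TRiC, mitochondrial, ER, UPR and ERAD) with horizontal lines between groups. Colour gives log2(FPKM + 1) minus the gene's parental mean, red above and blue below it. The parental columns are near white throughout. The mitochondrial block is mostly blue in the adapted columns, with HSPA9 palest and in part near white. The ER block is mostly blue except for its top rows, of which CANX rose.

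The ER stress response element (ERSE), CCAAT and CCACG separated by 9 bases, is bound by ATF6 with the CCAAT-binding factor NF-Y. It was found in 26 of 35116 promoters (0.074%), counted on both strands, and in those of 7 genes of the set: HSPA5, HSP90B1, PDIA6, CALR, CANX, CRELD2 and XBP1. Of the 7 genes 6 fell and CANX rose, while 9 of the 13 ER genes of the set and 26.2% of all tested rows fell. Changes among all genes with the element were not counted, and a link between element and change was not tested. The related element ERSE-II, ATTGG and CCACG separated by 1 base, was present in 18 promoters (0.0513%) and in 2 genes of the set, SDF2L1, which fell, and HERPUD1, which did not pass the threshold. The letters TGACGTGG, whose opposite strand contains the CCACG of the other elements and which are known as the UPR element, occurred in 215 promoters (0.612%) and in 0 genes of the set. The windows of HSPA5, HSP90B1 and XBP1, which fell, and of CANX, which rose, are shown with the parts of the ERSE in capitals, and the second stretch of HSP90B1 holds it on the opposite strand.
HSPA5, chr9:125241344-125241593, minus strand: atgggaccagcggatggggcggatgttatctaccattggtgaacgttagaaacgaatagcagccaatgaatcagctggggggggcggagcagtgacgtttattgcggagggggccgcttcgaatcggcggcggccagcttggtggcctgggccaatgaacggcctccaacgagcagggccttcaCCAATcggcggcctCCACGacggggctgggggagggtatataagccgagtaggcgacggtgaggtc
HSP90B1, distal, chr12:103930211-103930239, plus strand: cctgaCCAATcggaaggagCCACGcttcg
HSP90B1, proximal, chr12:103930316-103930344, plus strand: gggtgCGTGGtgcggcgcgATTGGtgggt
XBP1, chr22:28800598-28800682, minus strand: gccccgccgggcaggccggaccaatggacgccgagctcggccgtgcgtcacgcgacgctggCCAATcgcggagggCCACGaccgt
CANX, chr5:179698773-179698801, plus strand: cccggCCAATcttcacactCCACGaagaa

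The element lay from -66 to -48 in HSPA5, from -194 to -176 and from -89 to -71 in HSP90B1, and from -52 to -34 in XBP1. XBP1 has a further start site, whose window held no match. In CANX it lay from -151 to -133 of one RefSeq start site and from -189 to -171 of another, which are the same bases.

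Of the 6 UPR and ERAD genes 3 fell, 2 rose and HERPUD1 did not pass the threshold, with a median difference of -0.27. The share past it was 83.3%, beside 56.9% of all tested rows. The sensors moved apart. ERN1, which encodes IRE1, had 2.98, 2.96 and 2.98 in parental and 1.97, 2.15 and 2.01 in adapted cells, the furthest fall of the 45 genes (difference -0.93, SE 0.08, adjusted p = 7.48e-05). ATF6 had 3.46, 3.48 and 3.48 in parental and 3.67 in each adapted sample, a rise of 0.20 (SE 0.06, adjusted p = 0.0195). Neither pair of groups overlapped. The call of ATF6 was lost without any single parental sample, with an adjusted p of up to 0.0809 over the alternatives.

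XBP1, whose messenger IRE1 splices into the form that encodes the active factor, was at 5.95, 6.11 and 6.08 in parental and 5.60, 5.46 and 5.55 in adapted cells (difference -0.51, SE 0.07, adjusted p = 0.000725). The value of the gene does not separate the spliced from the unspliced form. EDEM1, an ERAD lectin that routes misfolded glycoproteins to degradation, was at 3.70, 3.64 and 3.58 in parental and 2.81, 2.94 and 2.68 in adapted cells (difference -0.83, SE 0.08, adjusted p = 0.00018). Both genes were lower in every adapted sample. SEL1L, the scaffold of the HRD1 ubiquitin ligase of ERAD, rose instead, with 4.32, 4.25 and 4.23 in parental and 4.44, 4.88 and 4.83 in adapted cells (difference 0.45, SE 0.12, adjusted p = 0.0146). Adapted replicate 1 was close to the parental range, and the call was lost without parental replicate 3. HERPUD1, an ER stress-inducible membrane protein of the same ligase complex, differed by -0.024 (95% confidence interval -0.17 to 0.13, adjusted p = 0.771), and its groups overlapped.

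The FPKM summed over a role group gives its abundant genes most weight. The summed FPKM of the cytosolic group was 1576 ± 9.51 (SD, n = 3) in parental and 1803 ± 62.5 in adapted cells, 1.14 times the parental value. HSPA8 alone went from 265 to 527 FPKM on average, a larger gain than that of the whole group. The other genes of the group together therefore did not rise in summed FPKM. The mitochondrial group went from 628.8 ± 1.24 to 440.8 ± 43.4, a ratio of 0.701, and the ER group from 1821 ± 6.91 to 1366 ± 41.2, a ratio of 0.75. The UPR and ERAD group went from 152.8 ± 3.75 to 132.1 ± 1.76, a ratio of 0.864. The values of these 4 groups did not overlap between parental and adapted cells, whereas those of TRiC did. All 45 genes together made up 1.41% of the FPKM of a parental sample and 1.3% of that of an adapted sample on average.

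**Figure D4:**
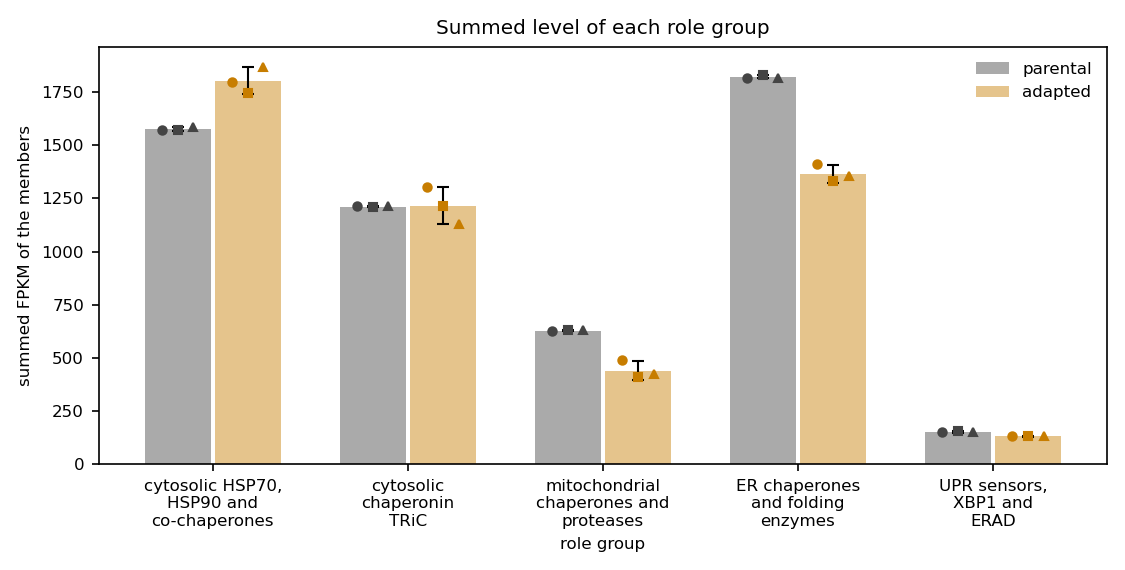
Bars give the mean summed FPKM of the members of each role group in parental (grey) and adapted (orange) cells, with the SD of 3 samples as error bars and each sample as a marker. The ER group was the largest in parental cells at 1821, and the cytosolic group the largest in adapted cells at 1803.

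Further genes of these pathways, 98 in 6 lists that do not contain the 45, were read in the same fit, and 91 of them passed the filter, of which 24 rose and 28 fell. These 57.1% were close to the 56.9% of all tested rows. Of 25 tested cytosolic heat shock proteins and co-chaperones 7 rose and 4 fell, with a median difference of 0.12. Their share past the threshold was 44%, below that of all tested rows. The greatest rise was that of HSPB8, a small heat shock protein that pairs with BAG3, from 2.60 ± 0.12 to 4.30 ± 0.16 (SD, n = 3), a difference of 1.70 (adjusted p = 2.09e-05). The HSP40 genes DNAJB2 and DNAJB4 followed with 1.27 (adjusted p = 3.92e-05) and 1.12 (adjusted p = 0.000152). Of further HSP70 genes, HSPA14 differed by 0.056 (adjusted p = 0.622), and HSPA2 and HSPA6 did not pass the filter. PTGES3, the HSP90 co-chaperone p23, fell by 0.47 (adjusted p = 0.0108), SUGT1, another HSP90 co-chaperone, by 0.38 (adjusted p = 0.00613) and FKBP4, an HSP90-binding immunophilin, by 0.29 (adjusted p = 0.00638). Prefoldin hands nascent actin and tubulin to TRiC. Of 7 tested genes for prefoldin and its relatives, 1 rose and 3 fell (57.1% past the threshold), with a median difference of -0.084. PFDN1 rose by 0.89 (adjusted p = 5.89e-05), and PFDN2, PFDN4 and VBP1 fell by 0.58, 0.53 and 0.29.

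Of 14 further mitochondrial chaperones, import motor components and proteases 2 rose and 5 fell, with a median difference of -0.18. Their share past the threshold was 50%, below the 56.9% of all tested rows. GRPEL2, a nucleotide exchange factor of mortalin, fell by 0.87 (adjusted p = 0.000656), PAM16, of the import motor, by 0.45 (adjusted p = 0.0149) and CLPX, the unfoldase partner of CLPP, by 0.38 (adjusted p = 0.00173). ATF5, a transcription factor of the mitochondrial UPR, rose by 0.58 (adjusted p = 0.00136). GRPEL1, the paralog of GRPEL2, was higher by 1.10 (adjusted p = 0.000132) as deposited. In 147 rows of the table, GRPEL1 among them, the values of 1 group do not return to FPKM with 6 decimals (tolerance 1e-08) unless a constant is subtracted, which is 0.66 for the adapted values of GRPEL1. Without it the difference of GRPEL1 would be 0.44. None of the 45 genes is among the 147 rows.

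Of 17 tested further ER folding genes 3 rose and 8 fell, with a median difference of -0.11. Their share past the threshold was 64.7%, beside 56.9% of all tested rows. ERO1A, the oxidase that recharges disulfide isomerases, fell by 1.09 (adjusted p = 0.000323), PDIA5, another isomerase, by 0.88 (adjusted p = 0.000153) and MANF, a secreted ER stress-inducible protein that binds BiP, by 0.82 (adjusted p = 0.000369). CALU, a calcium-binding protein of the secretory pathway, rose by 0.65 (adjusted p = 0.000379), SERPINH1, the collagen chaperone HSP47, by 0.57 (adjusted p = 0.00363) and ERP29 by 0.16 (adjusted p = 0.0401). The ERAD list went the other way, with 10 of 16 tested genes higher and 2 lower and a median difference of 0.22. Its share past the threshold was 75%, and 30.7% of all tested rows rose. EDEM2, a mannosidase-like relative of EDEM1, rose from 3.77 ± 0.08 to 5.18 ± 0.16 (SD, n = 3), a difference of 1.40 (adjusted p = 3.15e-05). OS9, a lectin of the HRD1 complex, rose by 0.73 (adjusted p = 0.000727) and UBE2J1, an ER-anchored ubiquitin-conjugating enzyme, by 0.70 (adjusted p = 0.00244). ERLEC1, a further lectin, fell by 0.40 (adjusted p = 0.00173) and EDEM3 by 0.31 (adjusted p = 0.00982).

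Of 12 tested further UPR signalling genes 1 rose and 6 fell, with a median difference of -0.22. Their share past the threshold, 58.3%, was near the 56.9% of all tested rows. MBTPS1, a protease that cleaves ATF6, rose by 0.66 (adjusted p = 0.000541), whereas MBTPS2, of the same list, fell by 0.21 (adjusted p = 0.031). Of the PERK arm, DDIT3 (CHOP), a pro-apoptotic factor, had 5.89, 5.89 and 6.06 in parental and 4.79, 4.76 and 4.71 in adapted cells, more than a unit lower in every adapted sample (difference -1.19, SE 0.07, adjusted p = 1.54e-05). TRIB3, a pseudokinase induced by ATF4 and CHOP, fell by 0.75 (adjusted p = 0.000126) and PPP1R15A (GADD34), a phosphatase subunit that reverses the action of PERK, by 0.63 (adjusted p = 0.000924). Its constitutive relative PPP1R15B fell by 1.16 (adjusted p = 6.19e-06), and BBC3 (PUMA), a pro-apoptotic gene that CHOP can induce, by 0.96 (adjusted p = 0.000111). The transcript of ATF4 did not pass the threshold, with 7.81 ± 0.05 in parental and 7.62 ± 0.17 in adapted cells (difference -0.19, adjusted p = 0.116). EIF2AK3 differed by -0.23 (adjusted p = 0.0924) as deposited. Its parental values carry a constant of 0.2, without which the difference would be -0.03.

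**Figure D5:**
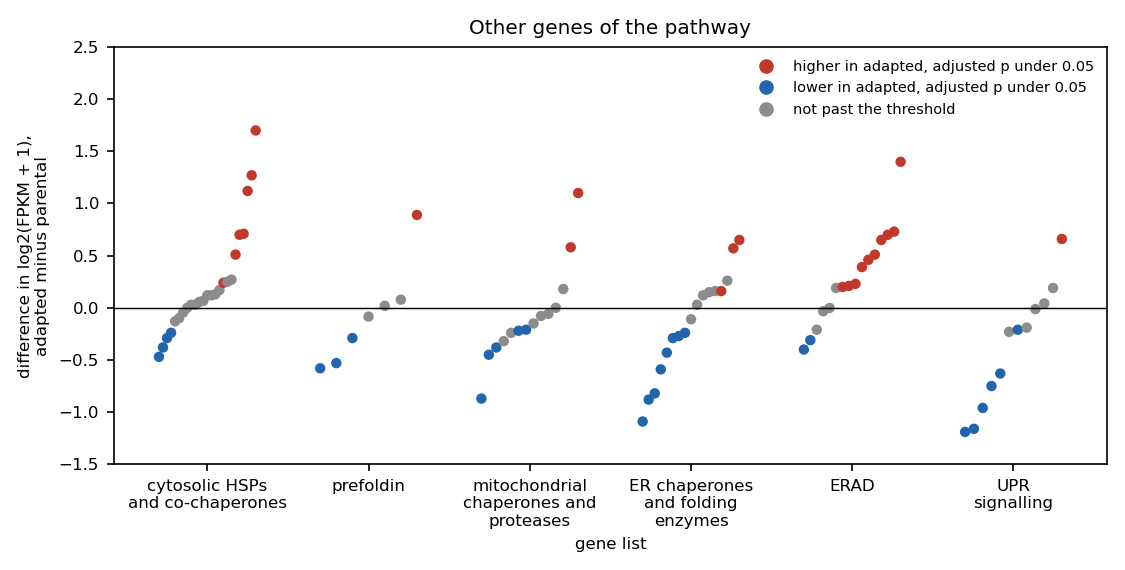
Each point is 1 of 91 further genes of the pathways, with its difference in log2(FPKM + 1), adapted minus parental, on the vertical axis and its list on the horizontal axis, sorted by value within a list. Red points (24) rose, blue points (28) fell and grey points (39) did not pass the threshold. ERAD has most of its points above 0, from -0.4 to 1.4, and UPR signalling most below 0, from -1.19 to 0.66.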

How the data were processed

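RNA-seq values were deposited by the authors as a single table of 27216 gene rows and 6 samples. Its unit is not named. The value of 2 to the power of the deposited log2 values, minus 1, has 6 decimals and sums to 375342 to 387753 per sample, so they were read as log2(FPKM + 1). FPKM depends on depth and on all other transcripts, and counts cannot be recovered. The submitters' processing notes name hg38, Bowtie2 2.1.0, STAR and edgeR without their roles. The quantifier and annotation are not given in the sources used here. The study's methods name a test for read counts, so limma 3.58.1 (R 4.3.3) was fitted on the log2 values of rows with a mean of at least 1, with an intensity trend and no block, and tested on simulated data. The 45 genes and the further lists, 6 of pathway genes and 6 of markers, proliferation and EGFR targets, were chosen with earlier results of these data known. In each role group up to 6 genes past the threshold, by size of change, are given in every sample. Of each further list up to 3 in each direction are given. EIF2AK3, ATF4, DDIT3, TRIB3 and PPP1R15A of the PERK arm are given besides, whatever their result. HSPA2, HSPA6, HSPA14 and MBTPS2 are named outside this rule. Gene positions and shared exons are from GENCODE v29 (GRCh38) and promoters from RefSeq (GRCh38.p14). In that annotation 16 of the 45 genes share an exon with another gene of the table, and 14 have 82 named pseudogene copies, of which 0 are in the table. How reads shared with these were assigned is not given in the sources used here. Alternatives were the pseudocount, the filter, normalization, the variance model, a replicate block, rows with an added constant and leaving out each sample.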

Additional observations from a re-analysis of the deposited data

How the results depend on the processing

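Over 18 alternatives, 0 of the 32 genes past the threshold changed sign, 21 passed under every alternative and 10 lost the call under at least 1. ERN1 passed under the 17 alternatives that tested it. The 10 were DNAJB1, BAG3, CCT2, CCT4, LONP1, P4HB, CANX, SDF2L1, ATF6 and SEL1L. Of the 13 others, 4 passed under at least 1 alternative (HSPA4, HSP90AB1, HSF1 and DNAJC3). With an adjusted p below 0.01, 5 genes counted as higher. Leaving out each sample in turn gave 6 to 12 genes higher, 18 to 23 lower and 5763 to 8370 rows of the table past the threshold. A mean of at least 3 left 4532 rows past the threshold, since fewer rows were tested, and gave the UPR and ERAD group a median of -0.024, since ERN1 dropped out. The median of the cytosolic group was 0.165 with quantile normalization, 0.155 with an equal sum per sample without the mitochondrially encoded genes, which was chosen after seeing the data, 0.087 with median centring and 0.103 to 0.134 with a sample left out, and for the normalizations the cause was not tested. Deviations of samples with the same replicate number correlated at -0.0509, -0.0309 and -0.0203, so no effect shared by replicate number was seen. Whether the samples were paired by design cannot be read from these values. With the replicate block 8 genes were higher, 22 lower and 6761 rows passed the threshold, and CANX and ATF6 no longer passed. Depth is unknown, so the precision of low values such as ERN1 could not be set against counting error.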
